A study of Mus musculus with 12 samples.

Results

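The genes described here are the makers, the vesicle loader and the lineage transcription factors of GABA neurons in the medial prefrontal cortex of adult mice exposed to a viral mimetic before birth. They are 8 genes, Gad1, Gad2, Slc32a1, Lhx6, Dlx1, Dlx2, Dlx5 and Dlx6 grouped by their function, out of 18820 genes that had a probe set of their own on the array. Each was taken by the single-gene probe set with the highest mean over the 12 samples, and each had exactly 1 such probe set. The PolyI:C group was 6 offspring of C57BL/6 mothers given poly(I:C), which is double-stranded RNA made to imitate a viral infection, at 5 mg/kg intravenously on gestation day 17. The control group was 6 offspring of mothers given saline by the same route on the same day. All 12 animals carry the strain label C57BL/6N, were 12 weeks old and had gone through cognitive and behavioural tests before the cortex was taken, and the comparison asks how the prenatal challenge bears on adult cortical expression. The titles call the animals biological replicates; litter and sex are not given in the labels used here, so that some animals may share a litter and the p-values cover only the variation among these 12.

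GABA, the main inhibitory transmitter of the cortex, is made from glutamate by 2 glutamate decarboxylases and loaded into synaptic vesicles by a transporter on the vesicle membrane. Cortical GABA neurons do not arise in the cortex: they are born in the ganglionic eminences of the embryonic forebrain and migrate in, under homeodomain transcription factors of the Dlx family and, for the medial eminence, Lhx6. Projection neurons of the striatum, which lies below the frontal cortex, are GABA neurons too and come from a Dlx-expressing eminence, as do the neuroblasts that migrate to the olfactory bulb throughout life, so several of these genes are not particular to cortical interneurons. In pieces of tissue, fewer cells of a type and less RNA per cell cannot be told apart.

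Of the 8 genes, 6 lie on chromosome 2, with Dlx1 and Dlx2 as neighbours, and 2 lie on chromosome 6, where Dlx5 and Dlx6 are neighbours. RefSeq start-site windows of GRCm38.p6, from 250 bases before to 50 bases after the start, were at hand for 6 of the 8 genes, 8 windows in all. Those of Dlx1 and Dlx2 are shown because these neighbours had the largest differences between the groups, that of Sp9 because this factor of the same lineages, also on chromosome 2, had a difference of similar size, and that of Gad1 as the gene of GABA synthesis. Sequences run 5′ to 3′ on the strand of the gene, and capitals mark CpG dinucleotides.
Dlx1, chr2:71529195-71529494, plus strand: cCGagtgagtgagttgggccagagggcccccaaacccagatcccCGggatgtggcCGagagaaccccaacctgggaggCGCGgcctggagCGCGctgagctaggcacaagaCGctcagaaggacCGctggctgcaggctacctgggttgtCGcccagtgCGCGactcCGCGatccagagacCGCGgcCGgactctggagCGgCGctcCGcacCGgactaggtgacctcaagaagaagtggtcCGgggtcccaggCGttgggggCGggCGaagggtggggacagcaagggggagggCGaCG
Dlx2, chr2:71546705-71547004, minus strand: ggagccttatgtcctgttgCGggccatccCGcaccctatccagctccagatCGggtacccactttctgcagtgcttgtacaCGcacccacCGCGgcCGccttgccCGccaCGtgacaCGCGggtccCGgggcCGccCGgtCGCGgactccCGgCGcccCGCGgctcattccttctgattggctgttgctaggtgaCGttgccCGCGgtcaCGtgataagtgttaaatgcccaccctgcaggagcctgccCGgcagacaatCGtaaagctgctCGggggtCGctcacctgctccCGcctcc
Sp9, chr2:73271676-73271975, plus strand: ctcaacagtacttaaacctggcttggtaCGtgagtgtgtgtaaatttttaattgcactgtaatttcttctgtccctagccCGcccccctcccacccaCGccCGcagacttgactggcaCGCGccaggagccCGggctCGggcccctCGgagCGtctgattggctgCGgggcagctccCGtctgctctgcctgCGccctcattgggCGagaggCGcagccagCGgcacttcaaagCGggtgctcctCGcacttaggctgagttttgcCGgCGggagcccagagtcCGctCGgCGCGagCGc
Gad1, chr2:70561879-70562178, plus strand: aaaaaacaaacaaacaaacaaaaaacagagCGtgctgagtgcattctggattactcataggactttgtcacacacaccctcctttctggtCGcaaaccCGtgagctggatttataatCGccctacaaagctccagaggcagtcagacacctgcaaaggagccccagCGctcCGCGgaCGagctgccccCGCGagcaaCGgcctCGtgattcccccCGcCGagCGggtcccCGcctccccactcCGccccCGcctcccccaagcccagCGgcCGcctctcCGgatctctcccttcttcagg
The windows held 27 CpG dinucleotides at Dlx1, 29 at Dlx2, 25 at Sp9 and 21 at Gad1, against a median of 7 over all 32851 windows. At least as many were found in 15.5% of all windows for Dlx1, 12.9% for Dlx2, 18.4% for Sp9 and 24.8% for Gad1. The letters TAATT, the core that many homeodomain proteins bind, were searched for on both strands (AATTA on the other strand, so that TAATTA counts once on each). They occurred 2 times in the Sp9 window, 0 times in those of Dlx1, Dlx2 and Gad1, in 1 of the 8 windows of the GABA genes, and in 27.0% of all windows.

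Expression was measured with 1 array per animal, and the deposited log2 values had array medians between 5.15 and 5.21. Across 23099 annotated probe sets, 653, or 2.83%, differed between PolyI:C and control at an adjusted p under 0.05 in limma, 467 (2.02%) higher and 186 (0.805%) lower. Leaving out 1 animal gave 230 to 818 calls, with 230 to 396 where PolyI:C 1, 3, 4 or 6 or control 1, 2 or 3 was the one. Quantile normalization turned the split into 239 higher against 285 lower, and median centring of the arrays into 298 against 232. Levels of different probe sets cannot be set against each other, so each gene is compared only with itself between the groups. As a check of the tissue, 10 measured markers of excitatory cortical neurons averaged 8.65 to 8.75 in PolyI:C animals and 8.62 to 8.72 in controls (log2). In 16 markers of striatal projection neurons 2 animals stood apart: mean log2 levels were 6.31 to 6.44 in the PolyI:C animals and 6.39 to 6.57 in 4 controls, but 6.87 and 6.75 in controls 5 and 6. Each of the 8 genes is therefore also given without these 2 animals, and so are the other genes whose value or call moved without them.

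None of the 8 genes passed the adjusted threshold in limma, where 2.02% of all probe sets were called higher and 0.805% lower, and all 8 had a lower mean in PolyI:C animals. At an unadjusted p under 0.05, 3 of them were lower, Dlx1, Dlx2 and Slc32a1, where 7.33% of all probe sets were lower at that level. The median log2 difference of the 8 genes was -0.10, against 0.0030 over all probe sets, of which 48.0% had a lower mean. The groups overlapped for each of the 8 genes, while 2.37% of all probe sets had groups without overlap (1.73% higher and 0.636% lower). Without controls 5 and 6, 7 of the 8 means were lower, the median difference was -0.067, and 0 genes had an unadjusted p under 0.05. Leaving out 1 animal gave 2 to 5 such genes, with 5 without control 4 and without PolyI:C 5.

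**Figure D1:**
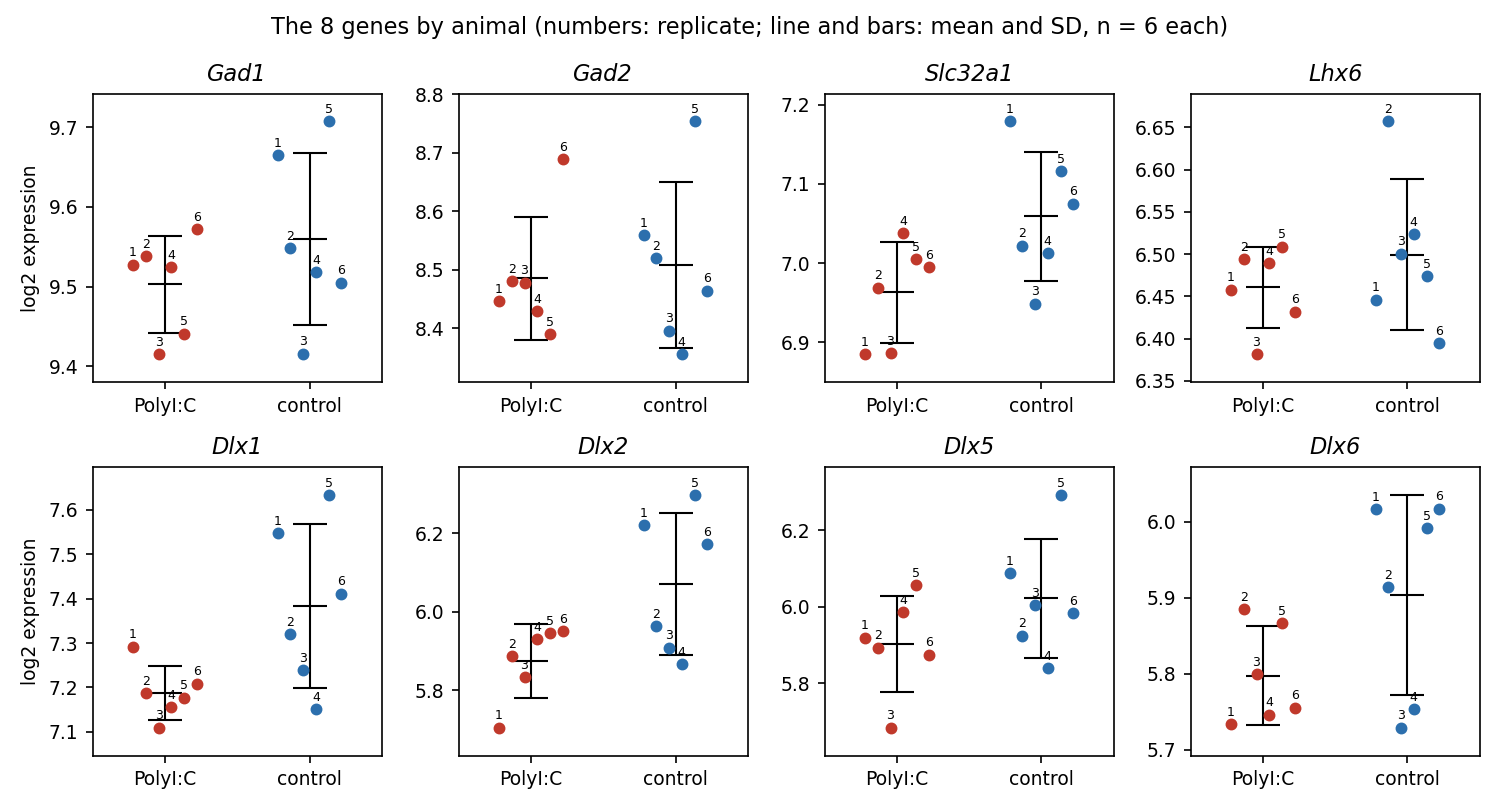
Log2 expression of the 8 genes in each animal, with 6 PolyI:C animals on the left and 6 controls on the right of each panel; the line and bars are the mean and SD, and each panel has its own axis. For Dlx1, Dlx2 and Dlx6, 4 controls lie above every PolyI:C animal, while for Gad2 and Lhx6 the groups cover much the same range.

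Neither enzyme of GABA synthesis passed. Gad1 encodes the decarboxylase known as GAD67, which makes most of the GABA of the cell body and is needed for normal inhibition from birth. Its log2 values ran from 9.42 through a median of 9.53 to 9.57 in PolyI:C animals, against 9.42, 9.53 and 9.71 in controls (lowest, median and highest). The groups covered the same values at the low end, and only controls 1 and 5, at 9.66 and 9.71, lay above all PolyI:C animals. The means were 9.50 ± 0.06 in PolyI:C animals and 9.56 ± 0.11 in controls (SD, n = 6 each), a log2 difference of -0.057 ± 0.046 (SE; 95% interval -0.15 to 0.041; limma adjusted p = 0.53). It was -0.034 without controls 5 and 6, and from -0.086 without control 3 to -0.027 without control 5 when 1 animal was left out.

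Gad2 encodes GAD65, the decarboxylase anchored to synaptic vesicles that supplies GABA for release. It had log2 values of 8.39, 8.46 and 8.69 in PolyI:C animals, against 8.36, 8.49 and 8.75 in controls (lowest, median and highest). The highest PolyI:C value, that of animal 6, stood clear of the other 5 of its group, and control 5 held the highest value of all. The difference was -0.023 ± 0.061 (log2, SE; 95% interval -0.15 to 0.11; limma adjusted p = 0.88). Its sign was the opposite without control 5 (0.027) and without controls 5 and 6 (0.028).

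Slc32a1 encodes VGAT, the transporter that fills synaptic vesicles with GABA and glycine. In PolyI:C animals its log2 values were 6.88 at the lowest, 6.98 at the median and 7.04 at the highest, against 6.95, 7.05 and 7.18 in controls. Controls 1, 5 and 6 lay above every PolyI:C animal, and PolyI:C animals 1 and 3 lay below every control. With means of 6.96 ± 0.06 and 7.06 ± 0.08 (PolyI:C and control, SD, n = 6 each), the difference was -0.096 ± 0.041 (log2, SE), a change of -6.44% in level. The 95% interval was -0.18 to -0.0091, the unadjusted p was 0.032 and the limma adjusted p was 0.21. Without controls 5 and 6 the difference was -0.078 (limma adjusted p = 0.39).

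Lhx6 is the LIM-homeodomain factor that parvalbumin and somatostatin interneurons need to migrate into the cortex and mature. Its log2 values were 6.38, 6.47 and 6.51 in PolyI:C animals, against 6.39, 6.49 and 6.66 in controls (lowest, median and highest). Control 2 was the highest animal for this gene, and the 2 groups otherwise shared nearly the same range. The difference was -0.039 ± 0.040 (log2, SE; 95% interval -0.12 to 0.047; limma adjusted p = 0.64). It was -0.071 without controls 5 and 6, and -0.0072 without control 2 (limma adjusted p = 0.94).

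The Dlx genes, homeobox factors that set up the GABA fate in the eminences and stay on in some adult interneurons, had the larger differences. Dlx1, which in adult mouse cortex is known from interneurons that make calretinin, neuropeptide Y or somatostatin, had log2 values of 7.11, 7.18 and 7.29 in PolyI:C animals, against 7.15, 7.37 and 7.63 in controls (lowest, median and highest). All 6 PolyI:C animals lay below the control mean, and 4 of the 6 controls, all but 3 and 4, lay above every PolyI:C animal. Means were 7.19 ± 0.06 in PolyI:C animals and 7.38 ± 0.18 in controls (SD, n = 6 each), and the difference was -0.20 ± 0.066 (SE; 95% interval -0.34 to -0.055), a change of -12.7% in level. The unadjusted p was 0.0092 and the limma adjusted p was 0.11. The gene passed in 1 of 24 alternatives, the fit without control 4 (-0.24, limma adjusted p = 0.042), and it differed by -0.13 without controls 5 and 6 (limma adjusted p = 0.28).

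Dlx2, the partner of Dlx1 that acts with it in the eminences to start the Gad genes and to send interneurons on their way, gave the same picture. Its log2 values were 5.71, 5.91 and 5.95 in PolyI:C animals, against 5.87, 6.07 and 6.30 in controls (lowest, median and highest). Controls 1, 2, 5 and 6 lay above every PolyI:C animal, control 2 only narrowly at 5.96, and PolyI:C animal 1 was the lowest. The difference was -0.20 ± 0.069 (log2, SE; 95% interval -0.34 to -0.050; unadjusted p = 0.012; limma adjusted p = 0.13). Without controls 5 and 6 it was -0.11 (limma adjusted p = 0.36).

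Dlx5 and Dlx6, the neighbouring pair on chromosome 6 that acts after Dlx1 and Dlx2 in the same lineage, differed by less. Dlx5 had log2 values of 5.68, 5.91 and 6.06 in PolyI:C animals, against 5.84, 5.99 and 6.29 in controls, and a difference of -0.12 ± 0.069 (SE; 95% interval -0.26 to 0.025; limma adjusted p = 0.35). Dlx6 had 5.73, 5.78 and 5.88 in PolyI:C animals, against 5.73, 5.95 and 6.02 in controls, and a difference of -0.11 ± 0.053 (SE; 95% interval -0.22 to 0.0054; limma adjusted p = 0.29). For Dlx6 the controls split, with animals 3 and 4 among the low PolyI:C values and the other 4 above all of them. Without controls 5 and 6 the differences were -0.062 for Dlx5 and -0.056 for Dlx6, and Dlx5 was at -0.066 without control 5 and at -0.076 without PolyI:C 3. Whether the Dlx genes differed more than Gad1, Gad2 or Lhx6 was not tested.

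**Figure D2:**
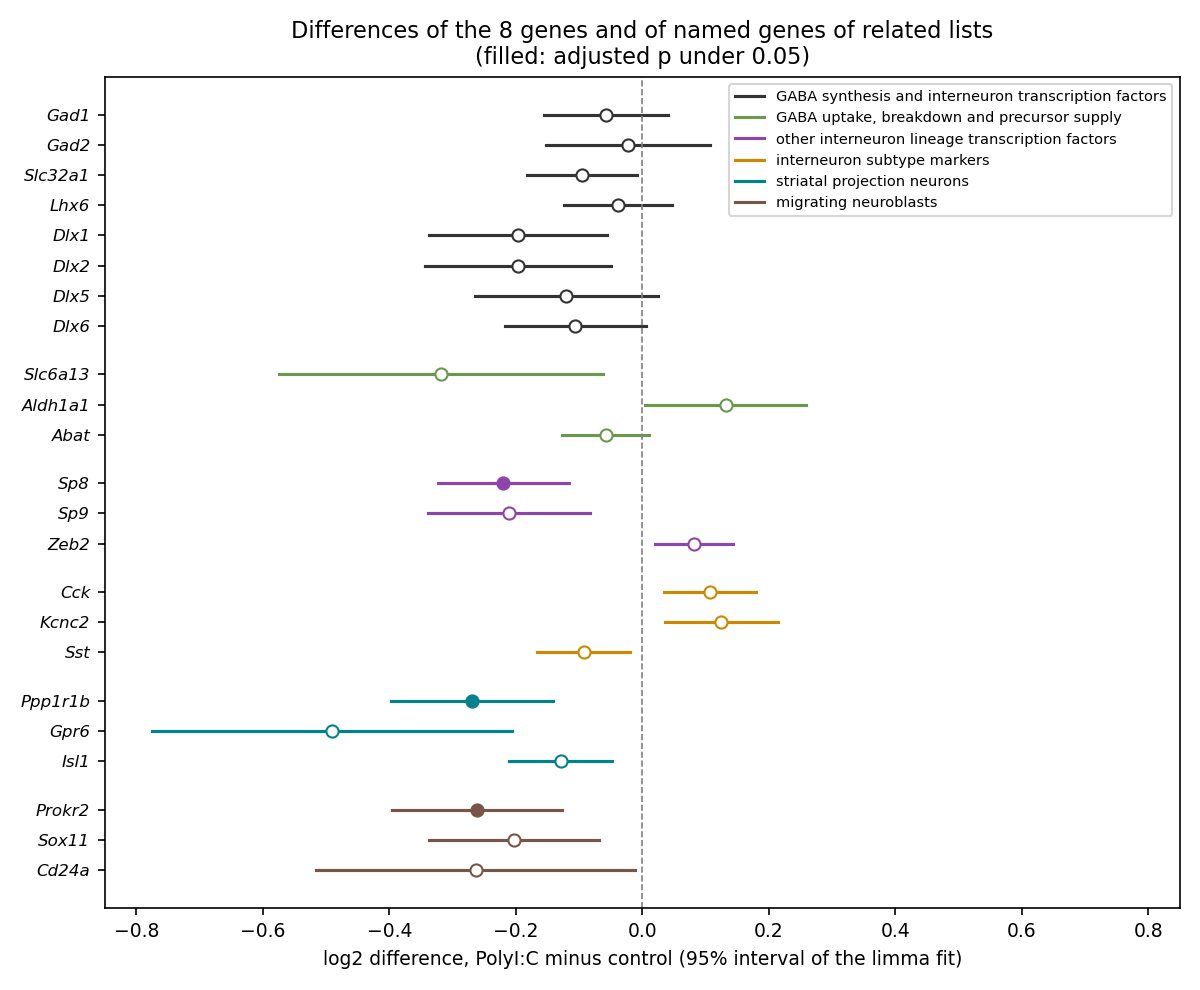
Log2 differences, PolyI:C minus control, with 95% intervals from the limma fit for the 8 genes and for named genes of 5 related lists; filled points passed an adjusted p of 0.05. None of the 8 genes is filled, and the filled points are Sp8 (-0.22), Ppp1r1b (-0.27) and Prokr2 (-0.26).

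The spread within the groups was also unequal. For all 8 genes the SD between controls was larger than that between PolyI:C animals, by a ratio of 1.24 for Dlx5 up to 3.02 for Dlx1, while over all annotated probe sets the median ratio was 0.963 and 47.0% had the larger SD in controls. A ratio at or above that of Dlx1 occurred in 1.71% of all probe sets. The high values came mostly from the same controls: control 5 was among the 3 highest of the 12 animals for 7 of the 8 genes, control 1 for 7 and control 6 for 4, whereas PolyI:C animal 3 was the lowest for 4 genes. Lhx6 was an exception, with control 2 the highest. In the striatal markers controls 1, 5 and 6 stood at 6.39, 6.87 and 6.75, and whether these markers bear on the spread was not tested.

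Among themselves, most pairs of the 8 genes had a positive correlation over the 12 animals, but for some pairs the sign differed between the 2 groups. On values centred within groups (n = 12), 22 of the 28 pairs had a Pearson r above 0, with a median of 0.60. After adjustment over the 28 pairs 1 pair passed, Slc32a1 with Dlx2 (r = 0.85, permutation p = 0.0016, adjusted p = 0.044; Spearman's rho = 0.83, permutation p = 0.0022, adjusted p = 0.060; two-sided). Its r was 0.80 without the 2 animals with the most extreme Slc32a1 values. Within the groups it was 0.86 in PolyI:C animals and 0.86 in controls, and without controls 5 and 6 it was 0.90 (n = 10, permutation p = 0.0047, adjusted p = 0.13). Gad1 with Gad2 gave r = 0.77 (rho = 0.76; permutation p = 0.0070 and 0.011; adjusted p = 0.075 for r), which was 0.54 without controls 1 and 5.

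Dlx1 with Dlx2 gave r = 0.74 (rho = 0.72; permutation p = 0.0405 and 0.0553; adjusted p = 0.11 for r), which was 0.36 without controls 1 and 5. The relation was not alike in the groups: r was -0.54 in the 6 PolyI:C animals and 0.97 in the 6 controls, a contrast described here and not tested. Lhx6 stood outside, with r between -0.38 and 0.012 for all 7 of its pairs (adjusted p from 0.46 to 0.97). Within the groups its r ran from -0.46 with Gad2 to 0.92 with Dlx5 in the 6 PolyI:C animals, and from -0.57 with Dlx2 to -0.10 with Gad2 in the 6 controls, which was not tested. None of the 28 pairs passed without controls 5 and 6.

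**Figure D3:**
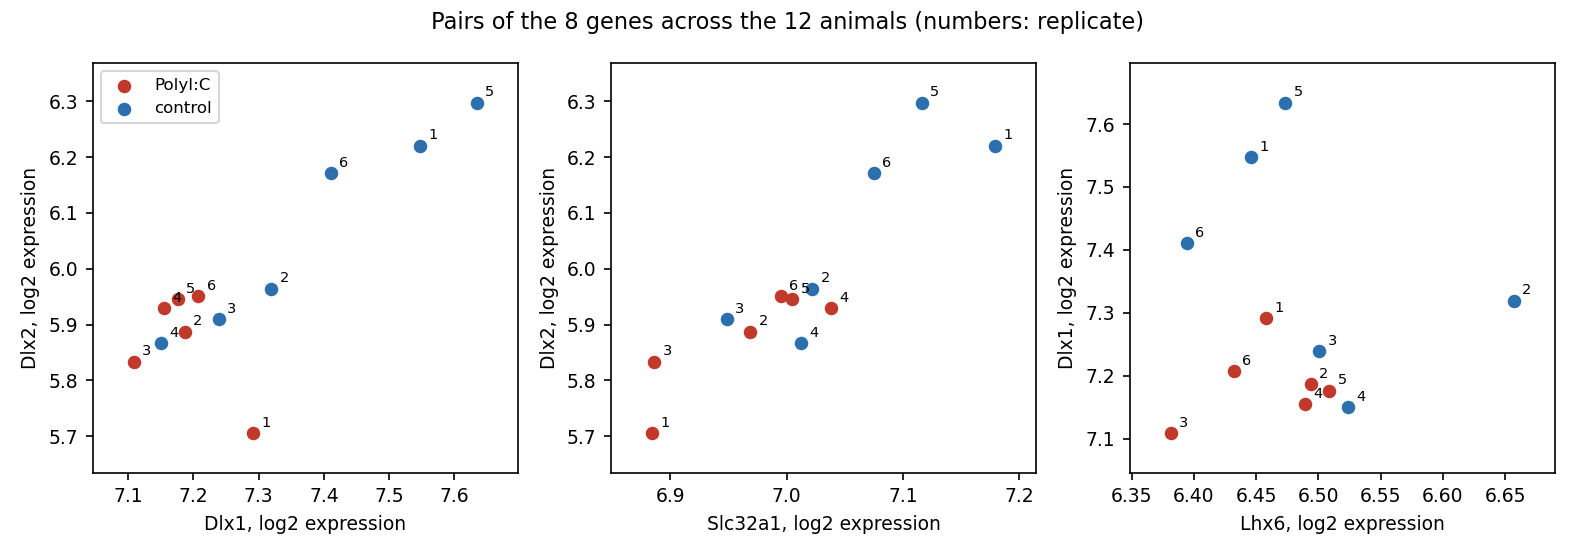
Log2 levels of 3 pairs of genes in the 12 animals, with replicate numbers beside the points; each axis is the log2 expression of 1 gene. In the first panel the controls form a rising line of Dlx2 on Dlx1 that ends in animals 6, 1 and 5, in the second Slc32a1 and Dlx2 rise together in both groups, and in the third Lhx6 and Dlx1 show no common direction.

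The striatal marker score gave r between -0.18 for Lhx6 and 0.59 for Dlx2 over the 8 genes (n = 12, centred within groups; adjusted p from 0.39 to 0.71 over 8 tests), and rho between -0.063 for Lhx6 and 0.56 for Dlx6. For Dlx2 the permutation p was 0.16 for r and 0.16 for rho. Controls 5 and 6 were the 2 animals farthest from the median score. Without them r was 0.71 for Lhx6, -0.41 for Gad1, -0.00031 for Gad2 and -0.18 for Slc32a1, and it was -0.22 for Dlx1, -0.013 for Dlx2, 0.10 for Dlx5 and 0.17 for Dlx6. Within the 6 PolyI:C animals alone r was 0.65 for Dlx2, 0.77 for Dlx6 and -0.40 for Dlx1, as a description. With the score as a covariate in limma the differences were -0.093 for Dlx1, -0.070 for Dlx2, -0.0093 for Dlx5 and -0.025 for Dlx6, and 0 of the 8 genes had an unadjusted p under 0.05. The score itself differed between the groups (log2 difference -0.21), so the covariate can take up part of any group difference. Its highest values were those of controls 5 and 6, so this fit is not separate from the one without them. What the covariate accounts for was not tested.

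**Figure D4:**
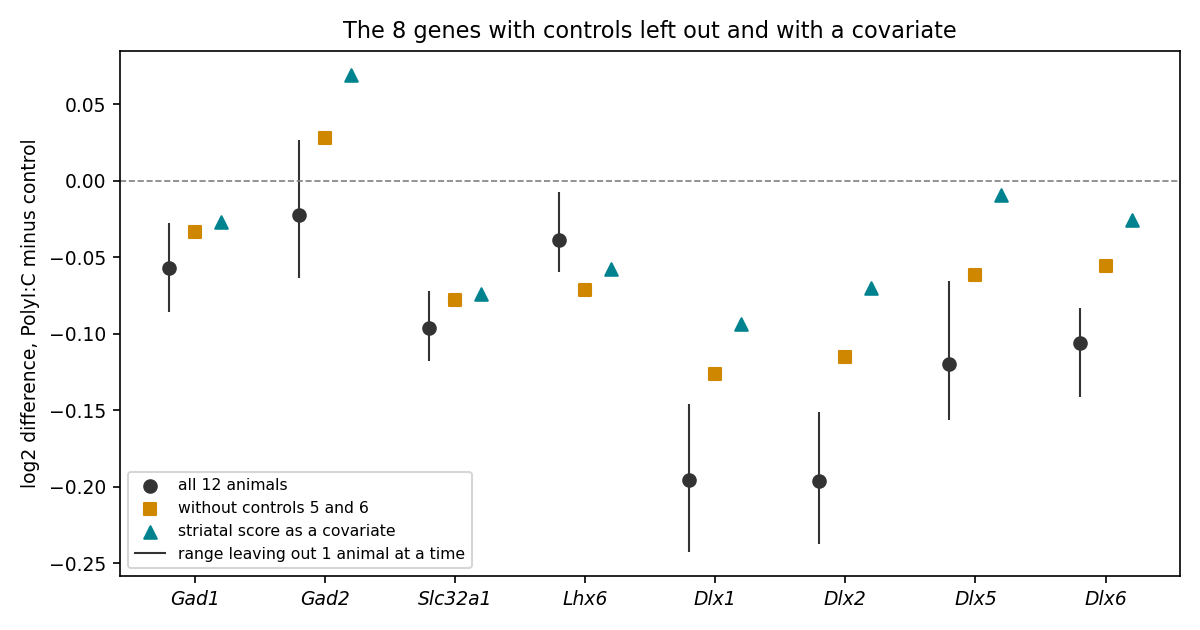
Log2 differences, PolyI:C minus control, of the 8 genes with all 12 animals (circles), without controls 5 and 6 (squares) and with the striatal marker score as a covariate (triangles); vertical lines span the fits that leave out 1 animal at a time. The 4 Dlx genes moved toward 0 in both alternatives, Lhx6 moved to -0.071 without controls 5 and 6, and Gad2 lay above 0 in both. The 2 alternatives are not separate checks, because controls 5 and 6 had the highest scores and the score differed between the groups.

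Genes that take up, break down or supply GABA were listed beside these. Of 19 listed, 15 had a probe set of their own, 0 passed in limma and 2 had an unadjusted p under 0.05, a level reached by 19.1% of all probe sets in either direction. The median difference was -0.014. Slc6a13, the GABA transporter GAT2, had log2 values of 6.16, 6.75 and 6.80 in PolyI:C animals, against 6.49, 6.94 and 7.22 in controls (lowest, median and highest), and a difference of -0.32 ± 0.12 (SE; limma adjusted p = 0.16). Aldh1a1, an aldehyde dehydrogenase with a role in an alternative route of GABA synthesis in mouse dopamine neurons, differed by 0.13 ± 0.060 (limma adjusted p = 0.24), and by 0.088 without controls 5 and 6. Abat, the transaminase that starts GABA breakdown, differed by -0.058 ± 0.033 (limma adjusted p = 0.35).

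Other transcription factors of the interneuron lineages gave 1 call. Of 26 listed, 22 were measured. In limma 1 was called lower (0.805% of all probe sets), 0 were called higher (2.02%) and 21 did not pass. The median difference was -0.032, and 14 had a lower mean (48.0% of all probe sets). An unadjusted p under 0.05 in limma was found for 7 (19.1% of all probe sets), 5 of them lower (7.33%) and 2 higher. The call was Sp8, a zinc-finger factor of interneurons from the caudal and lateral eminences and of olfactory bulb neurons. Its log2 values were 4.33, 4.38 and 4.42 in PolyI:C animals, against 4.47, 4.57 and 4.80 in controls (lowest, median and highest), with no overlap between the groups. Means were 4.38 ± 0.03 in PolyI:C animals and 4.60 ± 0.13 in controls (SD, n = 6 each), and the difference was -0.22 ± 0.049 (SE; limma adjusted p = 0.026). The probe set was dim, near the 25th percentile of all means, 4.34. The call was lost without control 6, without PolyI:C 4 and without controls 5 and 6 (limma adjusted p = 0.0515, 0.0509 and 0.0809). It was also lost with all rows tested (0.0574), without moderation (0.0866) and with the striatal score as a covariate (0.118), and over 23 alternatives the adjusted p ran from 0.017 to 0.12.

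Sp9, the close relative of Sp8 that striatal neurons and interneurons both use, had 6.27, 6.40 and 6.49 in PolyI:C animals, against 6.42, 6.59 and 6.84 in controls (log2; lowest, median and highest). All 6 PolyI:C animals lay below the control mean and 4 below every control. The difference was -0.21 ± 0.061 and did not pass (limma adjusted p = 0.069). It did in 4 alternatives: without control 4 (0.036), with the replicate block (0.039), after quantile normalization (0.044) and among probe sets at or above the 50th percentile (0.049). The mean over its single-gene probe sets differed by less, -0.12 (limma adjusted p = 0.084), as did the fit with the striatal score as a covariate (-0.12, limma adjusted p = 0.40). Zeb2, which directs eminence cells toward the cortex, differed by 0.082 ± 0.029 (limma adjusted p = 0.13). Tcf4, a basic helix-loop-helix factor singled out because its groups did not overlap, was not called either in the moderated fit without covariates (0.069, limma adjusted p = 0.15). Without moderation, where 122 probe sets were called in all, 1 of the listed factors was called. It was Tcf4, higher in PolyI:C animals, with SDs of only 0.025 in PolyI:C animals and 0.017 in controls.

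Markers of interneuron subtypes showed no common direction. All 20 listed were measured, 0 passed in limma, 3 had an unadjusted p under 0.05 (19.1% of all probe sets), and the median difference was 0.017 with 8 lower means, while the mean difference over the list was -0.0185. Sst, the peptide of somatostatin interneurons, had 9.77, 9.88 and 9.92 in PolyI:C animals, against 9.90, 9.94 and 10.04 in controls (log2; lowest, median and highest), and differed by -0.093 ± 0.035 (limma adjusted p = 0.15). Cck, a peptide of basket cells and of many excitatory neurons, differed by 0.11 ± 0.034 (limma adjusted p = 0.096) and passed with trend and robust eBayes (0.049). Kcnc2, a fast potassium channel of parvalbumin cells, differed by 0.13 ± 0.042 (limma adjusted p = 0.11) and passed without control 4 (0.046).

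Of 7 listed neighbours and antisense RNAs around the Dlx genes 5 were measured, and 0 passed in limma (2.83% of all probe sets). An unadjusted p under 0.05 was found for 1 (19.1% of all probe sets). The mean was higher for 4 and lower for 1, where 48.0% of all probe sets had a lower mean. Dlx1as, the antisense RNA that RefSeq places between Dlx1 and Dlx2, overlapping Dlx1, had 5.27, 5.46 and 6.00 in PolyI:C animals, against 5.05, 5.35 and 5.49 in controls (log2; lowest, median and highest). Its difference was 0.20 ± 0.10 and did not pass (limma adjusted p = 0.29), and it was 0.11 without PolyI:C 4. Metap1d, an aminopeptidase gene on the other side of Dlx1, differed by 0.10 ± 0.040 (limma adjusted p = 0.16). Tac1, the substance P gene on the side of Dlx5 and a marker of striatal neurons, differed by -0.27 ± 0.15 (limma adjusted p = 0.33), and by -0.035 without controls 5 and 6.

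Markers of other GABA cells in or near the dissected area mostly had lower means in PolyI:C animals, but few passed. Of 16 measured striatal markers all 16 had a lower mean (48.0% of all probe sets), 9 were lower at an unadjusted p under 0.05 (7.33%) and 1 was called lower (0.805%). The call was Ppp1r1b, which encodes DARPP-32, a phosphatase inhibitor under dopamine control, with 7.06, 7.20 and 7.26 in PolyI:C animals, against 7.29, 7.42 and 7.71 in controls (log2; lowest, median and highest; difference -0.27 ± 0.061, limma adjusted p = 0.028). The Ppp1r1b call was lost without controls 2 or 6 or PolyI:C 1, 3 or 4, and without controls 5 and 6 together (limma adjusted p = 0.051 to 0.067 in these fits). It was also lost with all rows tested (0.063), without moderation (0.10) and with the striatal score as a covariate (-0.11, limma adjusted p = 0.25). Ppp1r1b is itself 1 of the 16 genes averaged in that score, so the fit with the covariate cannot test this call. Gpr6, a receptor of indirect-pathway striatal neurons, differed by -0.49 ± 0.13 (limma adjusted p = 0.059), and by -0.25 without controls 5 and 6. It passed in 3 alternatives: without control 4 (limma adjusted p = 0.037), with array weights (0.047) and with the replicate block (0.036). Isl1, a factor of direct-pathway striatal neurons, differed by -0.13 ± 0.038 (limma adjusted p = 0.075) and passed without control 1 (0.047). Its probe set was dim, with a mean of 3.82, below the 25th percentile of all means (4.34).

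Of 8 measured markers of migrating neuroblasts, 7 had a lower mean (48.0% of all probe sets) and 1 was called lower (0.805%). Dcx, named as the 1 marker with a higher mean, differed by 0.0044 ± 0.052 (limma adjusted p = 0.98). Prokr2, a receptor that guides such cells to the olfactory bulb, had 5.15, 5.26 and 5.45 in PolyI:C animals, against 5.37, 5.54 and 5.78 in controls (log2; lowest, median and highest; difference -0.26 ± 0.064, limma adjusted p = 0.038). The Prokr2 call was lost without PolyI:C 1, 2, 3 or 4 or control 2, 3, 5 or 6 (limma adjusted p = 0.050 to 0.084), and it was -0.18 without controls 5 and 6 (0.0998). It was also lost with all rows tested (0.078), without moderation (0.12) and with the striatal score as a covariate (-0.099, limma adjusted p = 0.34). Sox11 (-0.20 ± 0.064) and Cd24a (-0.26 ± 0.12), genes of young neurons, did not pass (limma adjusted p = 0.092 and 0.24), and without controls 5 and 6 both were -0.11. Sox11 passed in 1 alternative, with the replicate block (limma adjusted p = 0.037). The list averaged 5.87 to 6.04 in PolyI:C animals and 5.96 to 6.22 in controls, with controls 5 and 6 again the highest at 6.22 and 6.18. The part of striatal or neuroblast tissue in the differences of the Dlx genes was not tested.

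**Figure D5:**
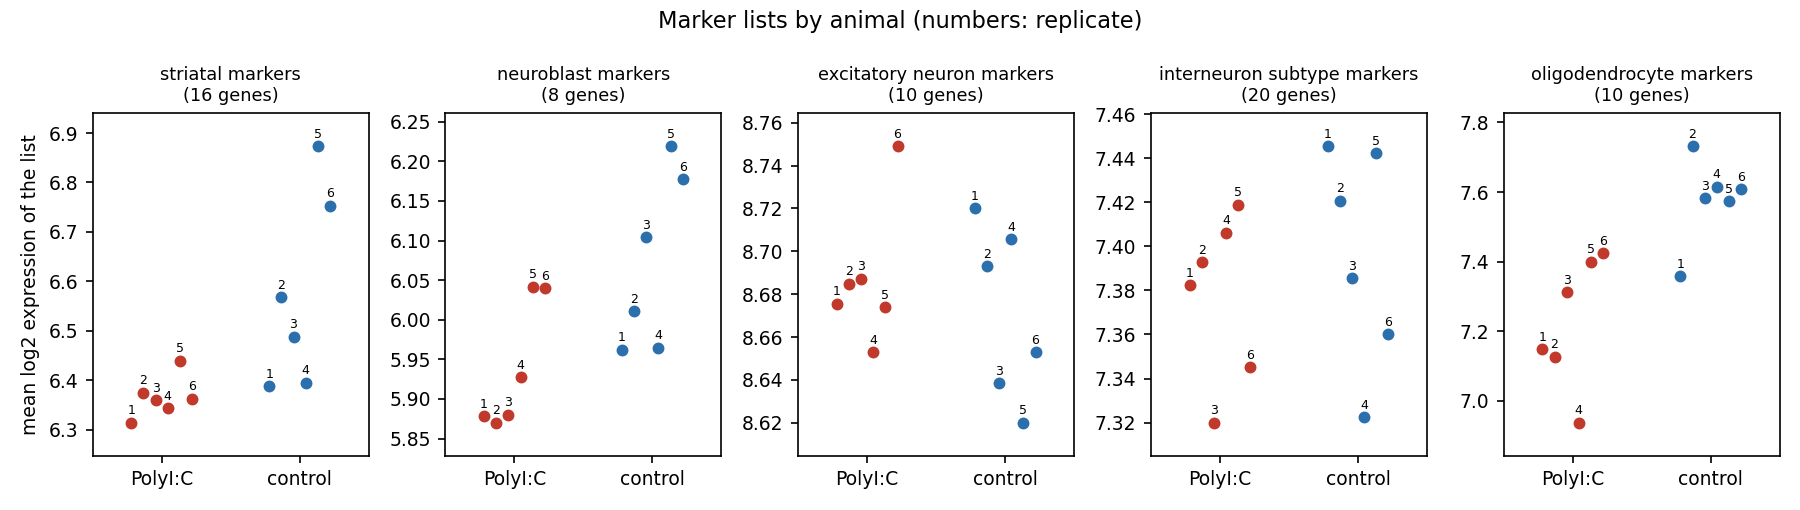
Mean log2 level of 5 marker lists in each animal, PolyI:C on the left and control on the right, with replicate numbers. Controls 5 and 6 are the highest animals for the striatal (6.87 and 6.75) and neuroblast (6.22 and 6.18) lists, the groups overlap for excitatory and interneuron subtype markers, and 5 of the 6 controls lie above every PolyI:C animal for oligodendrocyte markers.

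The remaining lists set the scale of other cells. Of 10 measured markers of excitatory neurons 0 passed in limma, with 1 at an unadjusted p under 0.05: Neurod6 differed by 0.12 ± 0.039, Cux2 by 0.12 ± 0.075 and Slc17a6 by -0.055 ± 0.059 (limma adjusted p = 0.10, 0.41 and 0.65). Without controls 5 and 6 Cux2 differed by 0.046. None of 6 pan-neuronal, 8 astrocyte, 6 microglial or 6 endothelial markers passed in limma, and 0 of each had an unadjusted p under 0.05. Of 10 oligodendrocyte markers all 10 had a lower mean (48.0% of all probe sets) and 6 were called lower in limma (0.805%). Mean levels of the list were 6.94 to 7.43 in PolyI:C animals and 7.36 to 7.73 in controls. On that list control 1 was the lowest control, at 7.36, and controls 5 and 6 were at 7.57 and 7.61.

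By the rule for likeness, the 3 genes that followed each of the 8 most closely were taken from 9511 other genes with a mean at or above the median of annotated probe sets, by Pearson's r over the 12 animals after centring within groups. As the highest of many values these are given as a description. Dlx1 was followed most closely by Pbx3 (r = 0.94), Pcp4l1 (0.94) and Sec24c (0.94), and Dlx2 by Panx1 (0.93), Mmgt2 (0.92) and Pwp1 (0.90). Gad1 was nearest to Strip2 (0.92), Fbxl5 (0.91) and Rfc2 (0.91), and Gad2 to Acot6 (0.91), Igsf11 (0.90) and Necab2 (0.89). For Slc32a1 the nearest were Hsdl1 (0.89), Cpq (0.88) and Bcar3 (0.88), and for Lhx6 they were Rassf2 (0.84), Slc66a2 (0.84) and Rad54l2 (0.83). Usp21, Nol7 and Galt came nearest to Dlx5 (0.88 each), and St8sia1, Pih1d1 and Spryd4 to Dlx6 (0.90, 0.90 and 0.89). No gene stood in the first 3 places of more than 1 of the 8.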

How the data were processed

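Total RNA of the micro-dissected medial prefrontal cortex was isolated (Qiagen AllPrep) and hybridised to Affymetrix Mouse Gene 1.1 ST strips, per the labels' protocols. Both a 3′ IVT and a whole-transcript labelling kit are named there. The authors deposited 1 log2 value per probe set and animal. The submitters' processing notes list RMA, which summarises probes on the log2 scale, and Partek 6.6, with no role for either. A genome build was not given in the sources used here.

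Of 35556 probe sets, 21218 had a lone symbol, 1881 had several symbols and 12457 were unnamed, and 21185 of the first were matched by gene identifier to RefSeq (GRCm38.p6), used for names, neighbours and start-site windows. The 23099 with a gene were tested by moderated linear models (lmFit, eBayes) of PolyI:C minus control, limma 3.58.1 under R 4.3.3, two-sided, without covariates, with Benjamini-Hochberg adjustment over all of them and a threshold of 0.05; adjusted p-values of genes come from this fit unless another setting is named. Depth does not apply to arrays, whose number limits the precision.

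The 8 genes, the lists and the tests were chosen with earlier results of these data known. The rule for named genes was every called gene and the 3 with the lowest p in each list, and the 3 most alike genes for each of the 8; pan-neuronal, glial and endothelial lists are given by counts. Tcf4 and Dcx are named beside this rule. Correlations used 100000 permutations within groups (Python 3.11.15, numpy 2.4.6, scipy 1.17.1). The fit was tested on simulated data. Alternatives were quantile normalization, the replicate block, median centring, array weights, a brightness minimum at either the 25th or the 50th percentile of means, a test of all rows, eBayes with trend and robust, no moderation, the mean over probe sets, the striatal score as a covariate, and leaving out each animal or controls 5 and 6.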

Additional observations from a re-analysis of the deposited data

Results flagged for a closer look

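Gad2 in PolyI:C 6 had a log2 level of 8.69, and the next highest PolyI:C animal was at 8.48. The gap took up 0.70 of the range of the 6 PolyI:C animals. The mean of the excitatory neuron markers was also highest in PolyI:C 6, at 8.75, with the next animal at 8.69 and a gap of 0.64 of the range. A lone animal of this kind turns up by chance in about 1 of 20 groups, and 82 groups were looked at to find these 2.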

How the results depend on the processing

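The count of called probe sets was 653, and it was 414 with all rows tested, 122 without moderation and 352 with the striatal score as a covariate; leaving out 1 animal gave 230 to 818. None of the 8 genes was called in any alternative except Dlx1 without control 4, so that the count of lower calls ran from 0 to 1 when 1 animal was left out. The median difference of the 8 ran from -0.12 after quantile normalization to -0.042 with the covariate. All 8 means were lower after quantile normalization and median centring. Gad2 changed sign without control 5 (range -0.063 to 0.027 leaving out 1 animal), without controls 5 and 6 (0.028) and with the covariate (0.070). With the covariate Tac1 (0.17), Cux2 (-0.036) and Cd24a (0.011) changed sign too. The cause was not tested. The number of other lineage transcription factors called, 1, was 0 with all rows, with the covariate and without controls 5 and 6, 2 after quantile normalization and with the replicate block, and 0 to 2 leaving out 1 animal. Without moderation it was 1, but that call was Tcf4 and not Sp8. The number of interneuron subtype markers called, 0, was 1 with trend and robust eBayes and 0 to 1 leaving out 1 animal. The number of pairs of the 8 genes past the threshold, 1, was 13 on raw values, which hold the group difference, and 0 without controls 5 and 6. Replicate numbers did not pair the animals (r from -0.092 to 0.11 between same-numbered deviations, and 0 of 6 PolyI:C animals were most like their own number), and the replicate block gave 536 calls and none among the 8 genes. The Sp8 call came from a dim probe set (mean log2 level 4.49), and how brightness bears on the differences was not tested.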
